A study of Homo sapiens with 6 samples.

Results

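The 44 genes described here carry out or control the passage of a cell through G2 and mitosis. They were taken from a list of gene symbols, which named members by their role and set no threshold on a measured value, but which was drawn up with earlier results of these data known. All 44 were found among the 58735 genes of the deposited expression table. RNA sequencing compared RKO cells, a human colorectal carcinoma line, in 2 groups of 3 libraries each. The Vector group is the negative control, and the LOC_OE group overexpresses the long noncoding RNA LOC101927668. By the study's methods for its stable lines, the full-length transcript was delivered by lentivirus and the cells were selected with puromycin, so the RNA was expressed from an integrated copy and not from its own locus. All cells grew in the same DMEM medium with serum, and no label gives a time point. The labels do not say whether the 3 libraries of a group came from separate cultures, so p-values measure the spread between these libraries, which may be technical. Levels are given in FPKM, fragments scaled by exon length and by library depth, and differences between groups were tested with limma on log2(FPKM + 1) and adjusted over the 16061 genes that passed a filter on low values.

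Entry into mitosis is driven by CDK1 bound to cyclin B, which is switched on by CDC25 phosphatases and helped by the polo and Aurora kinases. The spindle checkpoint then holds the cell until every kinetochore is attached to microtubules, after which CDC20 activates the anaphase-promoting complex, securin and cyclin B are destroyed, the chromatids part and the cell divides. Transcripts of these genes are low in G1 and peak in G2 and mitosis, and they are commonly read as a sign of proliferation in tumours. Their promoters often hold CCAAT boxes, bound by NF-Y, and a cell cycle genes homology region (CHR). The CHR is bound by the MuvB core, which represses as part of the DREAM complex downstream of p53 and p21 and activates together with B-MYB and FOXM1.

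Depth was similar between libraries, with 15008842 to 18410231 reads on genes. LOC101927668 had 0 or 1 read in each Vector library and 231, 270 and 276 reads in LOC_OE 1, 2 and 3. LOC_OE 1 stood apart from LOC_OE 2 and LOC_OE 3. The Pearson correlation of log2(FPKM + 1) over the 16061 tested genes was 0.982 to 0.983 between Vector libraries and 0.982 between LOC_OE 2 and LOC_OE 3, but 0.967 and 0.962 between LOC_OE 1 and those libraries. Reads of the mitochondrial genome made up 4.40% to 4.89% of the Vector libraries and 5.63% to 6.05% of the LOC_OE libraries, LOC_OE 1 among them at 5.73%. Of 8 colon epithelium markers, 4 (EPCAM, KRT8, KRT18 and CDX2) passed the filter on low values, while CDH1 was listed at 0 in every library and KRT19, KRT20 and VIL1 stayed under an FPKM of 0.5. Their summed FPKM was 39.4 to 41.5 in Vector and 48.4 to 89.6 in LOC_OE. None of 6 fibroblast and none of 4 endothelial markers passed, and of 6 immune markers CD68 alone did. The part of these differences in the results below was not tested. Results are given with all 6 libraries and without LOC_OE 1. LOC_OE 1 was set apart with earlier results of these data known, so p-values without it are descriptions and not independent tests.

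The CHR and CCAAT elements were looked for in RefSeq promoters on GRCh38.p14, which run from 250 bases before to 50 bases after a gene's start. The table held 46 promoters for 36 of the 44 genes. Searched on both strands, TTTGAA was present in 63.0% of these promoters and in 15.2% of all 35116 promoters of that length. The variants TTTAAA and TTCGAA were present in 32.6% and 6.52% of them, against 12.2% and 1.45% of all. CCAAT was present in 73.9%, against 34.6%. Some form of CHR together with CCAAT was found in 65.2% of the promoters of these genes and in 9.70% of all promoters. None of these motifs contains another, although neighbouring matches can overlap. CHR windows are printed for 8 genes that span the patterns of expression described below, picked after their values were seen. Each is 30 bases long, on the gene's strand, 5′ to 3′, with the CHR in capitals.
CCNB1, chr5:69167108-69167137, plus strand, CHR variant starting 30 bases before the start: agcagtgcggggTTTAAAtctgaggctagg
CCNB2, chr15:59105105-59105134, plus strand, CHR starting 29 bases before the start: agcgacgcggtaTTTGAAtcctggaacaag
PLK1, chr16:23678848-23678877, plus strand, CHR starting 29 bases before the start: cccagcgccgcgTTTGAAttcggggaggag
CDC25C, chr5:138331817-138331846, minus strand, CHR starting 30 bases before the start: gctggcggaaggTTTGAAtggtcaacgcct
CDC20, chr1:43358904-43358933, plus strand, CHR starting 65 bases before the start: cgacggttggatTTTGAAggagccaatagg
KIF23, chr15:69414282-69414311, plus strand, CHR starting 55 bases before the start: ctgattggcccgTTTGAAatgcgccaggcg
BUB1B, chr15:40161034-40161063, plus strand, CHR starting 23 bases before the start: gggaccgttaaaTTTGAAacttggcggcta
MKI67, chr10:128126435-128126464, minus strand, CHR starting 29 bases before the start: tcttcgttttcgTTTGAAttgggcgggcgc

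Of 42 TTTGAA matches in the promoters of these genes, 22 began within the 100 bases before the start. The 1217 other tested genes with TTTGAA had a median log2 difference over the Vector mean of 0.08 in LOC_OE 1 and 0.05 in LOC_OE 2 and 3, and the 8214 without it had 0.07 and 0.02. For TTTAAA, the variant printed for CCNB1, these medians were -0.00019 and 0.06 in 973 genes with it and 0.08 and 0.02 in 8458 without it. No test was made of these medians, and a match is a description of letters and not evidence of binding.

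The strongest feature of the 44 genes was a rise in 1 library. Their summed FPKM was 890, 858 and 881 in the Vector libraries, 1592 in LOC_OE 1, and 866 and 885 in LOC_OE 2 and 3. The FPKM total of all genes also differed, at 264150 to 280648 in Vector and 360434, 310012 and 305702 in LOC_OE 1, 2 and 3. In reads, they took 0.395%, 0.406% and 0.422% of the Vector libraries, 0.564% of LOC_OE 1, and 0.370% and 0.388% of LOC_OE 2 and 3. LOC_OE 2 and LOC_OE 3 thus lay at or near the Vector level, and LOC_OE 1 alone was high. LOC_OE 1 exceeded both other LOC_OE libraries in 43 of the 43 genes that passed the filter on low values, whereas 45.0% of all tested genes did. It was the highest of all 6 libraries for 42 of these 43 genes, CDC25C being the exception, against 33.4% of all tested genes. It was at least 1.5-fold above the Vector mean, on the log2(FPKM + 1) scale, for 30 of them, against 15.7%. With 1 library there is no replicate of this rise and no test of it. In bulk RNA, a larger share of cells in G2 and mitosis and more of these transcripts per cell cannot be told apart.

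**Figure D1:**
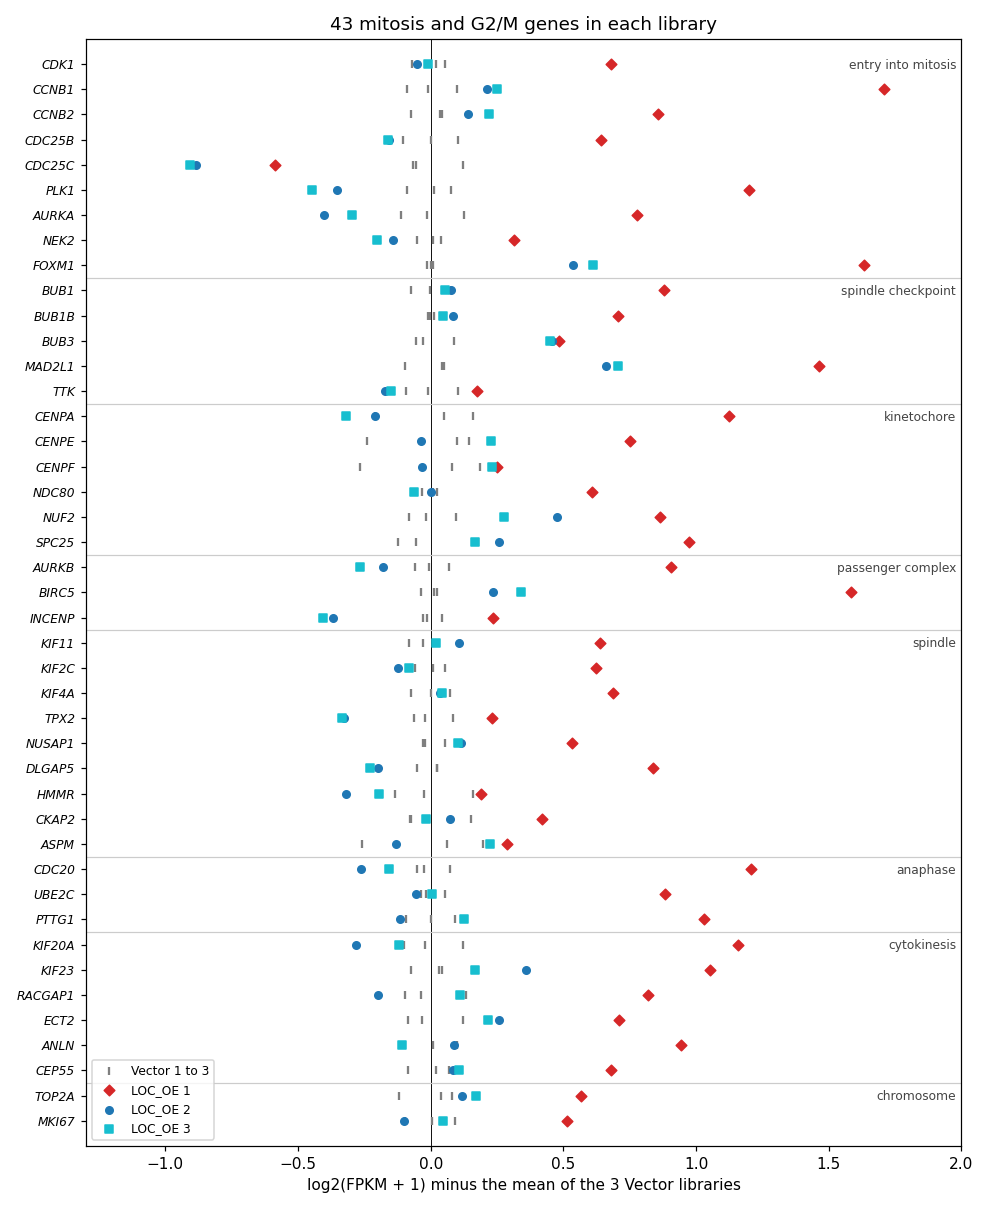
Each row is 1 of 43 genes, grouped by role, and the horizontal axis gives log2(FPKM + 1) in each library minus the mean of the 3 Vector libraries (grey bars). The red diamonds of LOC_OE 1 lie to the right of LOC_OE 2 and LOC_OE 3 in all 43 rows, while blue circles and cyan squares fall on both sides of 0.

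The rise in LOC_OE 1 is described here by role. The median log2 difference from the Vector mean was 1.03 for the anaphase genes, 0.90 for the chromosomal passenger complex, 0.88 for cytokinesis, 0.81 for kinetochores, 0.78 for entry into mitosis and 0.71 for the checkpoint. It was lower for spindle genes at 0.53 and for TOP2A and MKI67 at 0.54. Over all 43 genes it was 0.71, and over all tested genes 0.03. The corresponding medians in LOC_OE 2 and LOC_OE 3 were -0.04 and 0.04 for the 43 genes. Across the 43 genes, the difference between LOC_OE 1 and the mean of LOC_OE 2 and 3 correlated with GC content (Pearson r 0.53) and with log2 exon length (r -0.47). Over the tested genes these values were 0.21 and -0.0018. They are descriptions across genes of the same libraries, and genes are not replicates. With a GC trend fitted over all tested genes removed from each library, LOC_OE 1 exceeded LOC_OE 2 and 3 in 43 of 43 genes. Over all tested genes it did so in 6900 of 16061. Its median over the Vector mean was then 0.68 for the 43 genes and -0.0034 for all tested genes. A trend fitted over all genes need not remove a steeper one within the 43, and the part of GC content was not tested.

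Among the genes of mitotic entry, CCNB1 (ENSG00000134057, chr5:69167010-69178245, plus strand), which encodes cyclin B1, was furthest above Vector in LOC_OE 1. Its FPKM was 38.5, 35.5 and 33.6 in Vector and 119, 41.6 and 42.8 in LOC_OE 1, 2 and 3. Every LOC_OE library was above every Vector library, but LOC_OE 2 and 3 by a small margin. The group means were 35.9 ± 2.45 and 67.9 ± 44.6 (SD, n = 3 each), and with limma the log2 fold change of 0.72 ± 0.40 (SE) had an adjusted p of 0.237. Without LOC_OE 1 it was 0.23 ± 0.07 with an adjusted p of 0.0401. CCNB2, the second B-type cyclin, had 22.8, 23.0 and 21.1 in Vector and 41.2, 24.7 and 26.1 in LOC_OE, again without overlap. CDK1, the kinase both cyclins bind, had 22.4, 21.0 and 23.0 in Vector and 36.1, 21.3 and 21.9 in LOC_OE, so that LOC_OE 2 and 3 lay within the Vector range.

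PLK1 and AURKA, the kinases that promote CDK1 activation and spindle pole maturation, lay on both sides of Vector within the LOC_OE group. PLK1 was at 20.1, 19.2 and 17.8 FPKM in Vector and at 45.0, 14.7 and 13.7 in LOC_OE 1, 2 and 3. AURKA was at 23.0, 19.4 and 20.8 in Vector and at 36.8, 15.7 and 16.9 in LOC_OE. In both genes LOC_OE 1 was above the whole Vector range and the other LOC_OE libraries were below it. With all libraries the log2 fold changes were 0.13 ± 0.43 (adjusted p 0.849) for PLK1 and 0.03 ± 0.31 (adjusted p 0.958) for AURKA by limma. Without LOC_OE 1, PLK1 fell by 0.40 ± 0.07 (adjusted p 0.00764) and AURKA fell by 0.35 ± 0.08 (adjusted p 0.0214). AURKA lies on chromosome 20, where the median tested gene had a log2 fold change of -0.17, and with chromosome medians removed its adjusted p without LOC_OE 1 was 0.161. NEK2, a centrosome kinase, and CDC25B, the phosphatase that starts CDK1 activation, followed the same order of libraries without passing either fit. Opposite-strand genes cover 12.5% of the exon bases of PLK1, and no source gives the strand of the reads.

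CDC25C (ENSG00000158402, chr5:138285265-138338355 on the minus strand of hg38), a phosphatase that completes CDK1 activation, was the gene of the list that was lower in every LOC_OE library. Its FPKM was 6.77, 5.89 and 5.83 in Vector and 3.76, 2.88 and 2.81 in LOC_OE 1, 2 and 3, with no overlap. The log2 fold change was -0.79 ± 0.12 with an adjusted p of 0.00991 by limma, and -0.89 ± 0.08 with an adjusted p of 0.00143 without LOC_OE 1. With any 1 Vector library left out the adjusted p was 0.0511 to 0.0578, at a log2 fold change of -0.73 to -0.83. Exons of FAM53C on the opposite strand cover 8.78% of its exon bases.

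FOXM1 (ENSG00000111206, chr12:2857681-2877155, minus strand), the transcription factor that activates many G2/M promoters, was higher in every LOC_OE library and highest in LOC_OE 1. It had 15.6, 15.4 and 15.5 FPKM in Vector, which is a narrow range, and 50.2, 22.9 and 24.2 in LOC_OE. The log2 fold change of 0.93 ± 0.29 had an adjusted p of 0.0654, and without LOC_OE 1 it was 0.57 ± 0.05 with an adjusted p of 0.00117 (limma). FOXM1 lies on chromosome 12, where the median tested gene was at 0.16. With chromosome medians removed its log2 fold change was 0.77 (adjusted p 0.107, limma), and 0.41 (adjusted p 0.00200) without LOC_OE 1. Exons of ITFG2 on the opposite strand cover 15.9% of its exon bases.

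**Figure D2:**
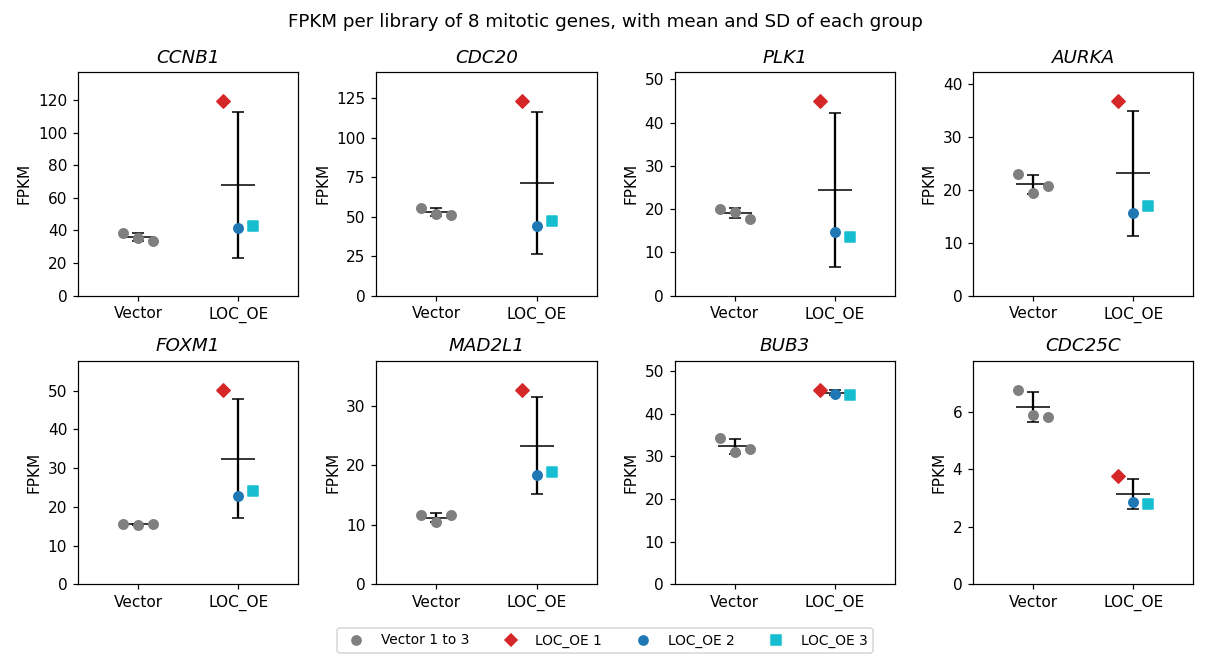
FPKM per library for 8 genes on axes that start at 0, with Vector in grey, LOC_OE 1 as a red diamond, LOC_OE 2 as a blue circle and LOC_OE 3 as a cyan square, and bars for the mean and SD of each group. CCNB1, CDC20, PLK1, AURKA, FOXM1 and MAD2L1 stand far above the other libraries in LOC_OE 1. CCNB1, FOXM1, MAD2L1 and BUB3 are above Vector in all 3 LOC_OE libraries, and CDC25C is below Vector in all 3.

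The spindle checkpoint held the 2 genes of the list that were higher in LOC_OE with an adjusted p under 0.05. MAD2L1 (ENSG00000164109, chr4:120055608-120067074, minus strand), the MAD2 protein that blocks CDC20 at unattached kinetochores, had 11.6, 10.4 and 11.7 FPKM in Vector and 32.7, 18.3 and 18.9 in LOC_OE. All 3 LOC_OE libraries were clear of the Vector range. The log2 fold change was 0.94 ± 0.22 (adjusted p 0.0299), and 0.68 ± 0.06 (adjusted p 0.00151) without LOC_OE 1. BUB3 (ENSG00000154473, chr10:123154277-123170467, plus strand), which brings BUB1 and BUBR1 to kinetochores, had 34.4, 31.1 and 31.7 in Vector and 45.6, 44.7 and 44.5 in LOC_OE, the LOC_OE libraries lying closer to each other than the Vector libraries did. Its log2 fold change of 0.46 ± 0.08 (adjusted p 0.0131) was nearly the same without LOC_OE 1, at 0.45 ± 0.06 (adjusted p 0.00319). BUB3 was thus the gene of the list in which LOC_OE 1 differed least from its partners, at 1.02-fold their mean. When any 1 Vector library was left out, neither passed, at log2 fold changes of 0.90 to 0.97 and adjusted p of 0.0923 to 0.115 for MAD2L1 and of 0.43 to 0.51 and 0.0521 to 0.0874 for BUB3. In those fits the genes passing over the whole table fell from 1712 higher and 1565 lower to 101 to 289 and 148 to 285. MAD2L1 lies on chromosome 4, where the median tested gene was at 0.21, and with chromosome medians removed its log2 fold change was 0.75 with an adjusted p of 0.0678. With the GC trend removed, it was at 0.85 with an adjusted p of 0.0506, and with no filter on low FPKM at 0.94 with an adjusted p of 0.0664. BUB3 was at 0.21 both at the same sum of FPKM (adjusted p 0.102) and after quantile normalization (adjusted p 0.161), and did not pass.

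The checkpoint kinases did not pass in either fit. BUB1 had 17.6, 15.7 and 16.6 FPKM in Vector and 31.4, 17.6 and 17.3 in LOC_OE, and BUB1B, which encodes BUBR1, had 17.0, 16.8 and 16.7 against 28.1, 17.9 and 17.4. Without LOC_OE 1 their log2 fold changes were 0.06 and 0.07. TTK, the MPS1 kinase that starts checkpoint signalling, had 5.00, 5.35 and 5.88 in Vector and 6.23, 4.68 and 4.77 in LOC_OE. Exons shared with the read-through gene BUB1B-PAK6 make up 10.2% of BUB1B.

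At the kinetochore, NUF2, a subunit of the NDC80 complex that grips microtubules, was above Vector in each LOC_OE library. Its FPKM was 7.78, 8.19 and 8.94 in Vector and 15.9, 11.9 and 10.2 in LOC_OE. The log2 fold change was 0.54 ± 0.16 (adjusted p 0.0564), and 0.37 ± 0.09 (adjusted p 0.0208) without LOC_OE 1. Its partners in the same complex did not pass: NDC80 had 8.96, 8.69 and 9.08 in Vector and 14.1, 8.90 and 8.49 in LOC_OE, and SPC25 had 9.50, 9.01 and 11.3 against 20.4, 12.0 and 11.2. CENPA, the histone variant of centromeres, was 2.84-fold higher in LOC_OE 1 than in the mean of LOC_OE 2 and 3, with 9.92, 7.44 and 9.11 in Vector and 20.3, 7.45 and 6.83 in LOC_OE. CENPE, a kinetochore motor, and CENPF, a protein of the outer kinetochore, overlapped between groups. In both, Vector 1 was the lowest of all libraries.

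In the chromosomal passenger complex, which corrects wrong attachments, the subunits went apart. BIRC5, which encodes survivin, had 13.8, 14.4 and 14.3 FPKM in Vector and 44.5, 16.9 and 18.2 in LOC_OE, above Vector in every library. INCENP, the scaffold, had 25.9, 27.0 and 25.6 in Vector and 30.9, 20.03 and 19.5 in LOC_OE. AURKB, the kinase, had 34.9, 31.9 and 33.1 in Vector and 63.2, 29.3 and 27.5 in LOC_OE. INCENP and AURKB were therefore above Vector in LOC_OE 1 and below it in LOC_OE 2 and 3. No subunit passed by limma with all libraries, where 10.7% of all tested genes were higher and 9.74% lower. At an unadjusted p under 0.05 there were 0, where 19.4% of all tested genes were higher and 17.1% lower. Without LOC_OE 1, BIRC5 rose by 0.29 ± 0.05 (adjusted p 0.0109), INCENP fell by 0.39 ± 0.05 (adjusted p 0.00285) and AURKB fell by 0.22 ± 0.06 (adjusted p 0.0298, limma). In limma fits without LOC_OE 1, BIRC5 did not pass at the same sum of FPKM (0.11, adjusted p 0.223). AURKB did not pass there with the GC trend removed (-0.155, adjusted p 0.0671).

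None of the 9 spindle genes passed by limma with all libraries, against 10.7% higher and 9.74% lower of all tested genes. Of these 9, 0 had an unadjusted p under 0.05, against 19.4% higher and 17.1% lower. TPX2, which activates Aurora A and nucleates microtubules, had the highest level of them, with 74.9, 67.6 and 69.5 FPKM in Vector and 83.0, 56.1 and 55.8 in LOC_OE. DLGAP5, a spindle stabilizer, had 10.6, 11.2 and 11.2 in Vector and 20.4, 9.44 and 9.21 in LOC_OE. Both were lower without LOC_OE 1, TPX2 by a log2 fold change of -0.33 ± 0.06 (adjusted p 0.00806) and DLGAP5 by -0.21 ± 0.05 (adjusted p 0.0251). TPX2 is on chromosome 20, and with chromosome medians removed it no longer passed (adjusted p 0.0764). The motors KIF11, KIF2C and KIF4A were 1.51- to 1.68-fold higher in LOC_OE 1 than in the mean of LOC_OE 2 and 3. In those libraries KIF11 and KIF4A were within the Vector range and KIF2C was just below it. CKAP2 and ASPM, proteins of spindle microtubules and poles, and HMMR, a spindle pole protein, overlapped between groups. HMMR was the lowest of the spindle genes at 1.54 to 2.60 FPKM. NUSAP1 was above Vector in every LOC_OE library, at 4.81 to 6.82 against 4.30 to 4.62 FPKM, but 62.2% of its exon bases are shared with another annotated gene on the same strand, so its level is uncertain.

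The anaphase genes were the group with the largest median rise in LOC_OE 1. CDC20, the activator of the anaphase-promoting complex, had 55.7, 52.0 and 51.1 FPKM in Vector and 123, 43.97 and 47.3 in LOC_OE. UBE2C, the ubiquitin-conjugating enzyme of that complex, had 77.5, 73.8 and 72.6 in Vector and 139, 71.8 and 74.9 in LOC_OE. PTTG1, which encodes securin, had 33.1, 31.0 and 28.9 in Vector and 64.2, 28.5 and 33.8 in LOC_OE. LOC_OE 1 was 2.33-, 1.86- and 2.07-fold the Vector mean for these genes. In LOC_OE 2 and 3, UBE2C and PTTG1 overlapped Vector, and CDC20 was below it. The log2 fold change of CDC20 changed sign, from 0.26 ± 0.38 (adjusted p 0.654) with all libraries to -0.21 ± 0.06 (adjusted p 0.0398) without LOC_OE 1.

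In cytokinesis, KIF23, the motor of the centralspindlin complex, had 9.64, 8.89 and 9.71 FPKM in Vector and 20.6, 12.3 and 10.7 in LOC_OE. It was above Vector throughout, with a log2 fold change of 0.53 ± 0.22 (adjusted p 0.143) and of 0.26 ± 0.08 (adjusted p 0.0441) without LOC_OE 1. Its partner RACGAP1 overlapped, with 23.4, 20.7 and 19.8 in Vector and 38.2, 18.4 and 23.0 in LOC_OE. KIF20A, a motor of the central spindle, had 8.71, 7.32 and 7.80 in Vector and 18.9, 6.35 and 7.22 in LOC_OE. LOC_OE 1 was 2.79-fold above LOC_OE 2 and 3 for KIF20A and 1.79-fold for KIF23. ECT2, which activates RhoA at the cleavage plane, and CEP55, which acts at abscission, were above Vector in all LOC_OE libraries without passing, at adjusted p of 0.111 and 0.271. ANLN, a scaffold of the contractile ring, overlapped. PRC1, which bundles central spindle microtubules, was the gene left out by the filter, at 0.197 to 0.526 FPKM from 16 to 54 reads per library, and other annotated genes cover 58.4% of its exon bases. It did not follow the others in LOC_OE 1, where it was at 0.215 FPKM, between LOC_OE 2 at 0.418 and LOC_OE 3 at 0.197.

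TOP2A, the topoisomerase that untangles sister chromatids, had 26.0, 29.1 and 30.0 FPKM in Vector and 42.5, 30.9 and 32.0 in LOC_OE. MKI67, which encodes the proliferation marker Ki-67, had 29.3, 31.4 and 33.5 in Vector and 45.2, 29.2 and 32.4 in LOC_OE. LOC_OE 1 was the highest library for both genes, at 1.44-fold the Vector mean for MKI67 and slightly more for TOP2A. Neither gene passed, with log2 fold changes of 0.29 ± 0.14 (adjusted p 0.189) and 0.15 ± 0.17 (adjusted p 0.546).

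Over the 43 genes tested, 2 were higher in LOC_OE with an adjusted p under 0.05 (BUB3 and MAD2L1), where 10.7% of all tested genes were, and 1 was lower (CDC25C), where 9.74% were. With a fold change of at least 1.5 as well, MAD2L1 was called higher, against 4.63% of all genes, and CDC25C lower, against 5.58%. The shares among the 43 genes were thus below the background. At an unadjusted p under 0.05, 5 were higher and 1 was lower, against 19.4% and 17.1% of all tested genes, which is again below the background. After rescaling to an equal sum of FPKM in each library, 1 was higher and 3 were lower, against 4.46% and 19.5%. After quantile normalization 3 were higher and 2 lower, against 10.4% and 11.2%. In all, 37 of the 43 genes had a log2 fold change above 0, their median was 0.25 and that of all tested genes 0.02. Every LOC_OE library was above every Vector library for 13 of them and below for 1, where 24.4% and 20.9% of all tested genes were. These counts depend on the scaling. At the same sum of FPKM they were 4 above and 5 below, and after quantile normalization 7 above and 3 below.

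Without LOC_OE 1, 7 of the 43 genes were higher and 8 lower, which is near the background of 19.8% and 16.8% of all tested genes. That background was itself larger than with all libraries. The higher genes were MAD2L1, FOXM1, BUB3, NUF2, BIRC5, KIF23 and CCNB1, and the lower ones CDC25C, PLK1, INCENP, AURKA, TPX2, AURKB, DLGAP5 and CDC20. The median log2 fold change was 0.004, beside 0.01 over all tested genes. Both remaining LOC_OE libraries were above every Vector library for 13 genes, against 32.6% of all genes, and below for 14, against 29.7%. At the same sum of FPKM, 3 were higher and 17 lower, against 10.5% and 29.1% of all genes, whose median this rescaling moved to -0.13. After quantile normalization 5 were higher and 12 lower, against 17.7% and 17.8%. The 6 genes BUB3, FOXM1, MAD2L1, CDC25C, INCENP and PLK1 passed under each of 6 other settings and with each of the 5 remaining libraries left out in turn. Of the 6 settings, DLGAP5 passed in 6, BIRC5 and TPX2 in 5, AURKA, AURKB, CDC20 and NUF2 in 4, KIF23 in 2 and CCNB1 in 1. Over the 5 left-out libraries, TPX2 passed each time, BIRC5 4 times, AURKA and NUF2 3 times, AURKB, DLGAP5, CCNB1 and KIF23 once, and CDC20 never.

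**Figure D3:**
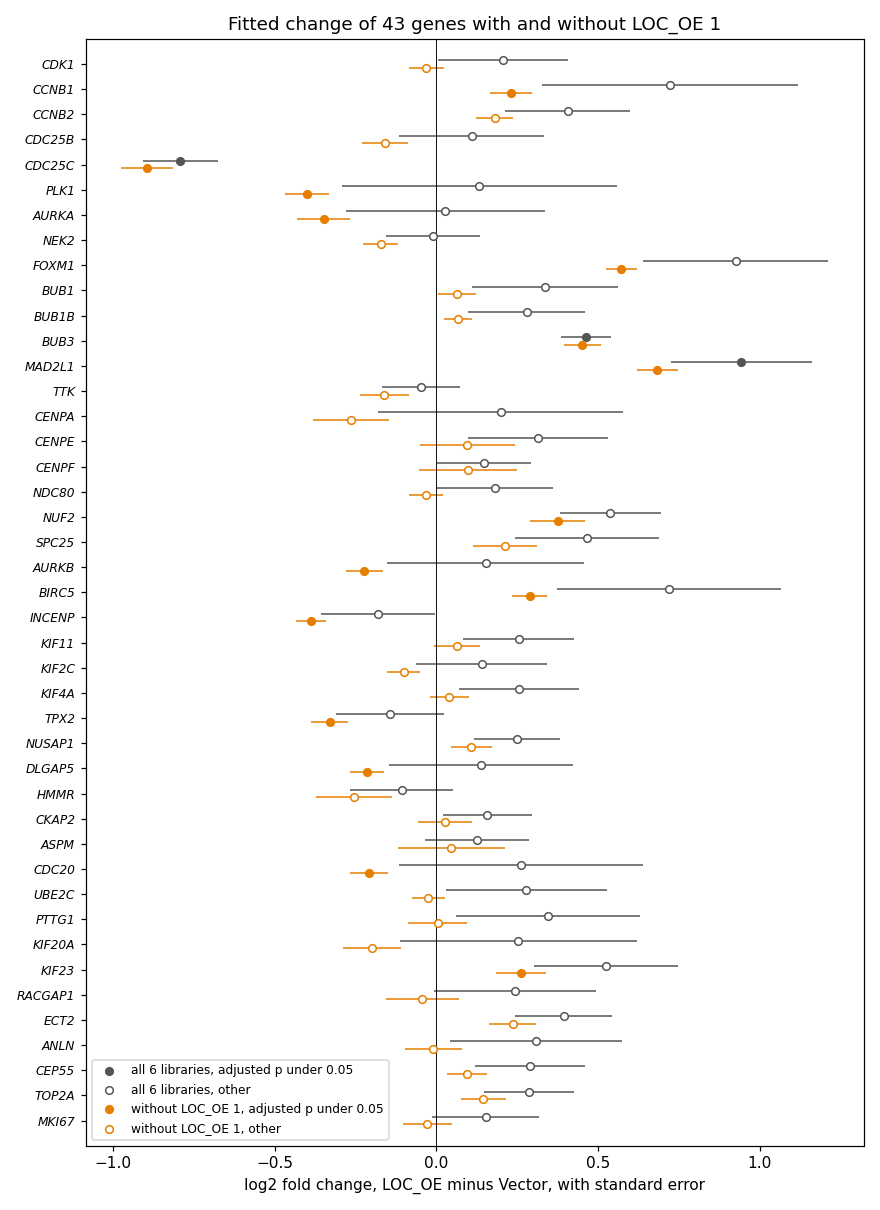
Fitted log2 fold change of LOC_OE minus Vector on the log2(FPKM + 1) scale for 43 genes, with 1 standard error, in grey for all 6 libraries and in orange without LOC_OE 1. Filled points have an adjusted p under 0.05, which 3 genes reach with all libraries and 15 without LOC_OE 1, and the orange bars are shorter for most genes.

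Other genes of cell division were grouped in 7 lists. Their counts of genes with an adjusted p under 0.05 stand beside the same shares of all tested genes, 10.7% higher and 9.74% lower with all libraries and 19.8% higher and 16.8% lower without LOC_OE 1. All 7 lists had a median above the Vector mean in LOC_OE 1, the highest being 1.06 for the G1/S and replication licensing genes. In LOC_OE 1, 2 and 3 the medians were 0.65, 0.21 and 0.16 for the other kinetochore and centromere genes. They were 0.65, 0.34 and 0.28 for cohesin, condensin and separase, and 0.41, 0.24 and 0.26 for the anaphase-promoting complex. Of 18 other mitotic kinases, cyclins and regulators, 1 rose, PLK4, the kinase that licenses centriole duplication, with 6.14, 6.60 and 6.91 FPKM in Vector and 16.8, 11.8 and 10.8 in LOC_OE (log2 fold change 0.88 ± 0.16, adjusted p 0.0162), and without LOC_OE 1 the list had 6 higher and 1 lower. Of 17 other kinesins and spindle or cytokinesis factors, none passed by limma with all libraries, and 2 were higher and 2 lower without LOC_OE 1. With all libraries 3 had an unadjusted p under 0.05, against 19.4% higher and 17.1% lower of all tested genes. Median log2 differences from the Vector mean were 0.87 and 0.75 in LOC_OE 1 for the kinase and kinesin lists, and 0.06 to 0.16 in LOC_OE 2 and 3.

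More genes passed in the lists of kinetochore structure and chromosome cohesion. Of 31 other kinetochore and centromere genes, 7 rose and none fell with all libraries, above the 10.7% of all genes that rose. Without LOC_OE 1 there were 10 higher, above the background of 19.8%, and 4 lower, below that of 16.8%. CENPU, a subunit of the inner kinetochore, rose in all LOC_OE libraries alike, from 8.83, 8.43 and 9.67 FPKM in Vector to 20.8, 19.4 and 20.7 (log2 fold change 1.10 ± 0.08, adjusted p 0.00292). SKA3, which holds kinetochores on microtubules, was at 12.0, 10.2 and 11.8 in Vector and at 34.6, 19.2 and 17.6 in LOC_OE, and CENPK and CENPH were the smallest of the 7 changes, at 0.52 and 0.60. Of 21 genes of cohesin, condensin and separase, 9 rose, against 10.7% of all genes, and none fell. The list was led by the condensin subunits SMC4 (0.78 ± 0.18, adjusted p 0.0310) and NCAPG2 (0.58 ± 0.15, adjusted p 0.0373). The smallest changes that passed were those of the cohesin genes PDS5B and STAG1, at 0.35 and 0.41. Without LOC_OE 1, 12 of the 21 rose, against 19.8% of all genes. At the same sum of FPKM, the count with all libraries was 3, and over all genes those higher went from 1712 to 716.

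Of 17 genes of the anaphase-promoting complex, 4 rose and 1 fell, against 10.7% and 9.74% of all genes, and without LOC_OE 1 there were 8 higher and 2 lower, against 19.8% and 16.8%. CDC27, a scaffold subunit, fell from 50.7, 49.4 and 53.6 FPKM in Vector to 26.0, 28.98 and 28.8 in LOC_OE (log2 fold change -0.85 ± 0.08, adjusted p 0.00459), while the subunits ANAPC1 (0.60 ± 0.08), ANAPC4 (0.46 ± 0.08) and CDC16 (0.37 ± 0.09) rose. LOC_OE 1 did not stand out for CDC27. At the same sum of FPKM, 1 rose and 2 fell, against 4.46% and 19.5%.

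The regulators of these promoters and the genes of the preceding phase had medians above Vector in each LOC_OE library, as the other lists above did. Of 15 genes of DREAM, MuvB and NF-Y, 7 rose and none fell, against 10.7% and 9.74% of all genes, and 11 rose without LOC_OE 1, against 19.8%. TFDP1, the partner of E2F factors, rose from 34.5, 30.3 and 29.8 FPKM to 74.9, 48.3 and 46.4, and the MuvB subunits LIN9, LIN54 and RBBP4 had log2 fold changes of 0.57 ± 0.12, 0.42 ± 0.08 and 0.46 ± 0.08. The medians of this list were close, at 0.43, 0.40 and 0.35 in LOC_OE 1, 2 and 3. Single genes differed more. LOC_OE 1 exceeded both other LOC_OE libraries in 9 of the 15, TFDP1 among them, against 45.0% of all tested genes. Of 20 G1/S and replication licensing genes, 9 rose and none fell, and 16 rose without LOC_OE 1, against the same background. CDC45 rose by 1.12 ± 0.18 (adjusted p 0.0115) and CDC6 by 0.98 ± 0.19 (adjusted p 0.0194), both needed to start DNA replication, and MCM3 and MCM6 of the replicative helicase by 0.61 and 0.62. The medians of this list were 1.06, 0.41 and 0.44 in LOC_OE 1, 2 and 3. Rescaling to the same sum of FPKM left 1 of the 15 and 7 of the 20 genes higher, against 4.46% of all genes.

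**Figure D4:**
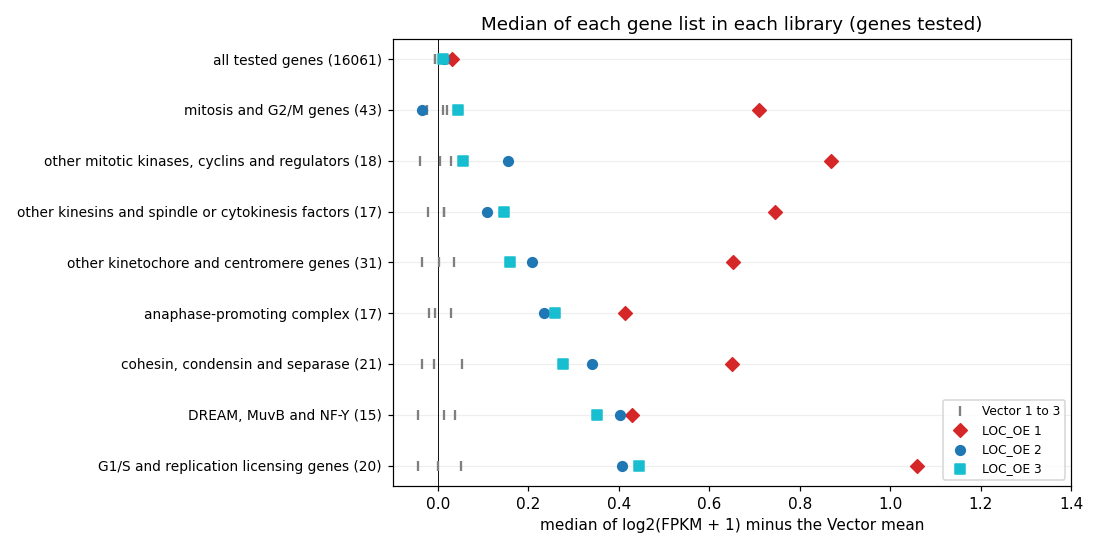
Median log2(FPKM + 1) of each gene list in each library minus the Vector mean, with the number of genes tested in brackets. In LOC_OE 2 and LOC_OE 3 the 43 mitosis and G2/M genes lie at -0.04 and 0.04 while the G1/S list lies at 0.41 and 0.44, and in LOC_OE 1 both are high, at 0.71 and 1.06.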

How the data were processed

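RNA from RKO cells was sequenced as paired ends on an Illumina NovaSeq instrument after NEBNext Ultra library preparation, in 3 Vector and 3 LOC_OE libraries grouped by their labels. The authors deposited 1 table of FPKM values for 58735 genes. Their processing notes name HISAT2 2.0.4, StringTie 1.3.0 and hg38. All gene identifiers matched GENCODE version 29, from which symbols, exon lengths and overlaps were taken. FPKM times exon length gave whole reads for 100% of values (tolerance 0.05 of a read). The size by which the authors had divided equalled the median-of-ratios size of the library. The libraries were thus on one median-of-ratios scale, which does not make their FPKM totals equal. There were 0 unused columns.

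Testing used limma 3.58.1 (R 4.3.3) on log2(FPKM + 1) with a variance trend. It covered the 16061 genes that reached an FPKM of 0.5 in 3 or more libraries, with Benjamini-Hochberg adjustment over all of them. A fold change understates the change of low genes on this scale. Fold values between libraries are ratios of FPKM unless the log2 scale is named. Calls needed an adjusted p under 0.05 together with a 1.5-fold change. On simulated data in which 200 genes changed 2-fold between the groups, 97% were recovered among 16485 genes, and 23 unchanged genes were called. The simulation gave every gene and library the same added spread and held no library that stood apart as LOC_OE 1 did. It checked that the test ran properly, and its 97% does not describe the power in these data. Within each role, values are given for every gene called, those with the largest and smallest change and that with the highest level in Vector, and of each other list for the 2 largest and 2 smallest changes with an adjusted p under 0.05. Other members were added to show where libraries differed. The members and lists were chosen with earlier results of these data known. Promoters are RefSeq sequences on GRCh38.p14, and no genome coordinate was converted. Errors are SDs between libraries or standard errors of the fit, both from the spread between libraries.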

Additional observations from a re-analysis of the deposited data

How the results depend on the processing

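For the genes picked by the rule within each role, 299 values under other settings kept their direction and side of the threshold. A further 21 passed it newly, 14 no longer passed it and 26 changed sign. Members added outside that rule, PLK1, AURKA and DLGAP5 among them, are not in these counts. The genes with an adjusted p under 0.05 numbered 2 higher and 1 lower with the replicate number as a block. Higher, they were 1 with no filter on low FPKM, 1 at the same sum of FPKM, 1 with chromosome medians removed, 6 with array weights, 4 with voom on recovered reads, 5 with unadjusted p and 0 to 7 with a library left out. Lower, they were 3 at the same sum, 2 after quantile normalization, 5 with array weights and 0 to 8 with a library left out. Called higher were 0 with no filter or chromosome medians removed, 2 after quantile normalization or with unadjusted p, 3 with voom and 0 to 2 with a library left out, and called lower 0 to 1. Without any 1 of the 3 Vector libraries no gene of the list passed and those over all genes fell to 101 to 289 higher and 148 to 285 lower, while without LOC_OE 1 there were 7 and 8. The block lowered the genes with an adjusted p under 0.05 over the whole table from 1712 higher and 1565 lower to 1125 and 940. Deviations of same-numbered libraries correlated at 0.11, -0.034 and 0.12, and not every library correlated best with its own number, so the numbers were not taken to pair the samples.

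The median log2 fold change of 0.25 was -0.023 with array weights and 0.0038 to 0.38 with a library left out, lowest without LOC_OE 1. Rescaling to the same sum moved the median of all genes to -0.18 and that of the list to 0.0044, a gap of 0.18 in place of 0.23, and after quantile normalization the list was at 0.083, a gap of 0.068. Without LOC_OE 1, the genes higher were 4 with no filter, 3 at the same sum and 4 to 7 with a further library left out, and those lower were 5, 17 and 4 to 7. Where a single LOC_OE library was left, it was assumed to vary like the others. Leaving out LOC_OE 1 was planned, while the removal of chromosome medians and the other settings combined with leaving out LOC_OE 1 were chosen after the data were seen.

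Signs changed for genes that did not pass with all libraries. With array weights AURKB was at -0.16, CDC20 at -0.21, PTTG1 at -0.060, UBE2C at -0.025, RACGAP1 at -0.13, MKI67 at -0.079 and CENPF at -0.027. After quantile normalization AURKB was at -0.10, CDC20 at -0.011, UBE2C at -0.017, MKI67 at -0.091 and CENPF at -0.0050. At the same sum AURKB was at -0.10, CENPF at -0.10, MKI67 at -0.10 and RACGAP1 at -0.0076, and with chromosome medians removed TTK was at 0.00053 and TPX2 at 0.015. With a library left out AURKB ranged from -0.22 to 0.36, CDC20 from -0.21 to 0.52, UBE2C from -0.025 to 0.44, RACGAP1 from -0.043 to 0.46, MKI67 from -0.027 to 0.28 and TTK from -0.16 to 0.013. Members outside the naming rule changed sign without LOC_OE 1 as well. PLK1 went from 0.13 to -0.40, AURKA from 0.03 to -0.35 and DLGAP5 from 0.14 to -0.21. CDK1, CDC25B, CENPA, NDC80, KIF2C, KIF20A and ANLN also went from above 0 to below it. The cause of these changes was not tested. Depth limited PRC1 and HMMR most, which had the fewest reads.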
